A study of Mus musculus with 6 samples.

Results

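Collagens and laminins, the main structural proteins of the extracellular matrix, were followed in RNA-seq of microdissected arcuate nucleus (ARC). Their genes were taken by symbol. The symbol was Col, a number, the letter a and a number, or Lam, the letter a, b or c and a number. With a gene of this form set aside and not reported here, the choice gave 54 genes. All 54 were measured, meaning a CPM (count scaled by library size) of at least 0.5 in at least 3 of the 6 libraries. Of these genes, 53 passed the filter on low counts and were tested for a difference between genotypes, among 15236 genes tested in all. The exception was *Col6a4*, a chain of a type VI collagen, which lay between 0.465 and 0.803 CPM and has values but no test. By class, 11 genes encode fibrillar collagens and 19 encode basement membrane proteins, of which 6 are type IV collagen chains, 2 are collagens XV and XVIII and 11 are laminin chains. A further 3 encode membrane-bound collagens. The other 21 are 9 fibril-associated collagens (FACITs), 6 type VI chains, 3 short-chain network collagens, the anchoring fibril collagen *Col7a1*, and *Col26a1* and *Col28a1*.

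The study asked how gene expression in the ARC differs when estrogen receptor alpha (ERα) is removed from the medial basal hypothalamus. ARC tissue was dissected by hand from 3 control and 3 mutant adult female mice. The labels give their mixed background as CD-1, 129P2 and C57BL/6, and the study's methods name only CD-1 and 129P2 for this line. Controls were *Esr1* fl/fl, so they carried the floxed *Esr1* alleles but no Cre. Mutants, named *Esr1* Nkx2-1Cre, carried the same alleles and Cre driven by *Nkx2-1*, a gene active in developing medial basal hypothalamus and so also in cells outside the ARC. No group carried Cre without the floxed alleles, so effects of Cre itself and of *Esr1* deletion cannot be told apart. Each library was amplified from 50 ng of total RNA with the NuGEN Ovation RNA-Seq System V2. Counts on genes came to 14747944, 17877137 and 14046798 in control replicates 1, 2 and 3 and, in the mutants, to 11792440, 15741681 and 15166356. Levels below are CPM scaled by TMM (trimmed mean of M values), listed in the order of replicates 1, 2 and 3, and 3 counts correspond to between 0.174 and 0.247 CPM. That floor covers counting error only, because amplified reads are not independent molecules.

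The deleted gene was checked first. *Esr1*, which encodes ERα, lies on the minus strand at chr10:5340927-5734948 in NCBIM37 and stood at 64.4, 57.4 and 48.4 CPM in controls. In mutants it stood at 11.8, 9.54 and 7.05 CPM, below every control. Its level fell by 2.59 on the log2 scale (SE 0.18, adjusted p = 0.000884 in edgeR's quasi-likelihood test). One value per gene does not show whether the counted exons include the floxed one, so the reads left in mutants were not assigned to cells or to transcripts.

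All 6 arcuate markers, *Agrp*, *Npy*, *Pomc*, *Ghrh*, *Tac2* and *Tbx3*, were detected in every library. *Npy*, the neuropeptide of hunger-promoting ARC neurons, stood at 158, 112 and 134 CPM in controls and 194, 150.4 and 153 CPM in mutants, and *Pomc*, the precursor of satiety peptides, stood between 145 and 267 CPM. A marker of neighbouring tissue differed between libraries. *Cbln1*, a marker of the ventromedial hypothalamus (VMH), stood at 11.6, 49.0 and 32.1 CPM in controls and 18.3, 75.3 and 77.6 CPM in mutants, lowest in replicate 1 of each genotype. Whether this came from the dissections was not tested.

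Control replicate 2 stood apart from the other 5 libraries. *Cga*, the hormone subunit made in the pars tuberalis and pituitary, was at 3.25 CPM there and between 372 and 581 CPM elsewhere. *Tshb*, its partner subunit, was at 1.92 CPM there and at least 70.5 CPM in every other library. Some genes of vessels and connective tissue were also low in control replicate 2, among them *Emcn*, an endothelial sialomucin, at 2.79 CPM against 17.5 to 23.0 CPM elsewhere. The matrix proteoglycan *Dcn* was at 33.4 CPM there against 88.8 to 201 CPM elsewhere. Others were not low, such as the mural gene *Notch3* and the fibroblast gene *Igf2*, at 15.8, 23.2 and 17.2 CPM and 55.4, 91.7 and 66.6 CPM in the 3 controls. Fold changes of collagens and laminins that moved by more than 1.5 times without this library are given with and without it, as values or as ranges.

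Collagens are built from chains that wind around one another into a helix, which requires glycine at regular steps along each chain. Fibrillar collagens assemble into the fibrils of connective tissue, whereas type IV collagens and laminins, heterotrimers of an alpha, a beta and a gamma chain, form the sheets of basement membranes. In the brain this matrix is concentrated in the walls of blood vessels and in the meninges, with little fibrillar collagen between neurons and glia, and membrane-bound collagens are made by neurons among other cells.

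None of the 53 tested collagen and laminin genes passed an adjusted p of 0.05 in edgeR's quasi-likelihood test, which called 18 genes in all, 0.118% of those tested, with 0.0591% higher and 0.0591% lower in mutants. At an unadjusted p under 0.05, 3 of the 53 remained, *Lama3* higher in mutants and *Col2a1* and *Col7a1* lower, against 8.85% of all genes (4.84% higher and 4.01% lower). DESeq2 called 1 of the 53, *Col2a1*, where it called 1.31% of all genes. Genotypes did not overlap for 6 of the 53, against 15.8% of all genes tested (7.88% higher and 7.88% lower). Among these, the mutants were all higher for *Lama3*, *Col12a1* and *Col26a1* and all lower for *Col2a1* and *Col7a1*. By none of these counts except that of DESeq2 were the members' shares above those of all genes, and the DESeq2 count is a single gene. In bulk tissue, fewer cells that make a matrix protein and less RNA per cell cannot be told apart.

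**Figure D1:**
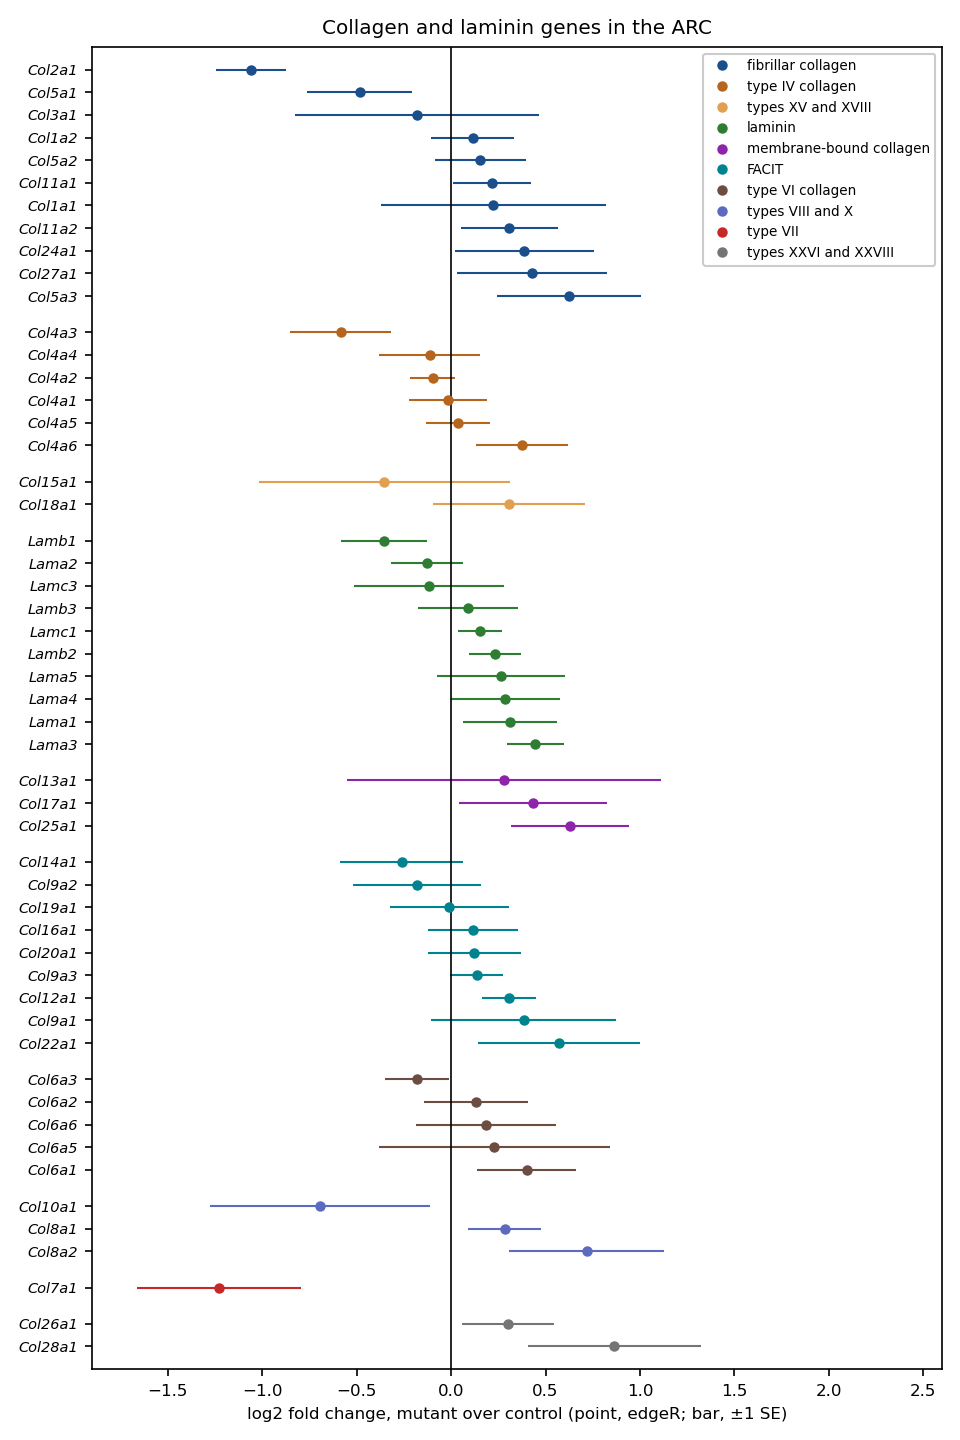
Log2 fold change of mutant over control ARC (horizontal axis) for tested collagen and laminin genes, in blocks by class, with points from edgeR and bars of ±1 SE. *Col2a1* at -1.06 and *Col7a1* at -1.23 lie farthest to the left, and *Col28a1* at 0.87 lies farthest to the right.

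One control library was the lowest of the 6 more often than any other. Control replicate 2 had the lowest level of the 6 libraries for 30 of the 53 tested genes, against 21.7% of all genes, and the highest for 0 of 53, against 20.4% of all genes. It was lowest for 9 of 11 laminin genes, 6 of 11 fibrillar collagen genes and 3 of 6 type IV collagen genes. Mutant replicate 1 was most often the highest, for 16 of the 53, against 20.7% of all genes. The 54 genes together took 0.112%, 0.0642% and 0.0879% of the counts in controls and 0.118%, 0.108% and 0.10% in mutants. The lowest share was that of control replicate 2, and the genotypes overlapped through control replicate 1.

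The direction of the members as a group rested on that library. With all 6 libraries, 36 of the 53 fold changes were above 0 and their median was 0.19 on the log2 scale, where the median of all genes was 0.00. Without control replicate 2, 28 of the 53 were above 0 and the median was 0.02, beside 0.01 for all genes. Without it the genotypes did not overlap for 16 of the 53 (7 higher and 9 lower in mutants), against 24.6% of all genes. EdgeR then called 0 of the 54 members that could be tested, where it called 0.296% of all genes. At an unadjusted p under 0.05 it took 8 of the 54, against 7.73% of all genes.

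**Figure D2:**
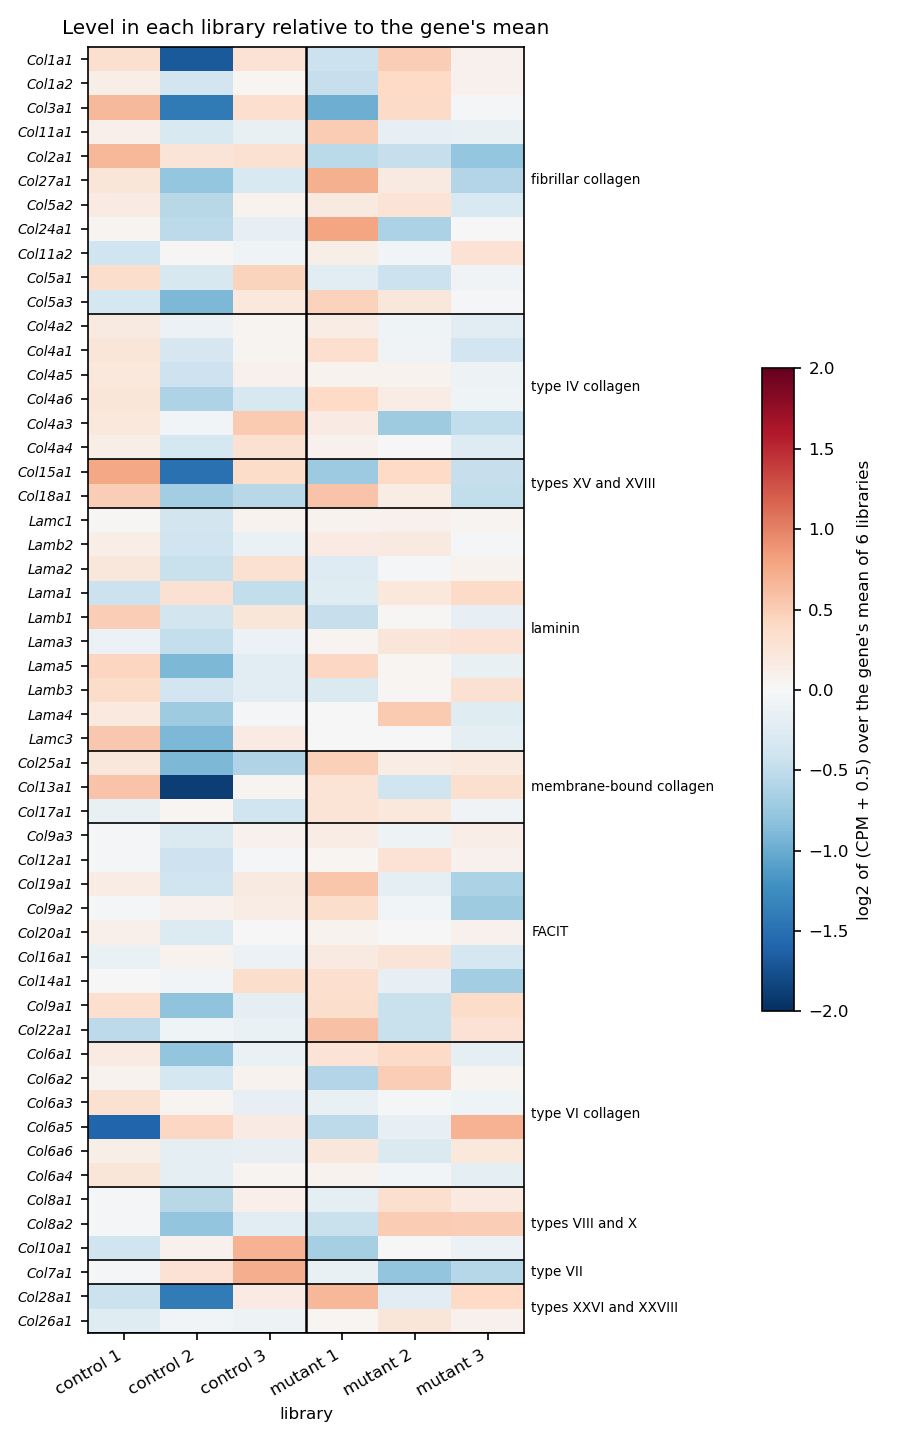
Level of collagen and laminin genes (rows, by class and then by median CPM per kb) in the 6 libraries (columns), as the log2 of CPM plus 0.5 over the mean of the gene's 6 values. The column of control replicate 2 is mostly blue, the color of levels below the gene's mean.

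Among fibrillar collagens, *Col2a1* was called lower in mutants by DESeq2 and not by edgeR. It encodes the chain of type II collagen, the collagen of cartilage and of the vitreous of the eye, and lies on the minus strand at chr15:97806033-97835155. Its level was 13.7, 10.2 and 10.6 CPM in controls and 5.69, 6.09 and 4.79 CPM in mutants. Every mutant lay below every control, and the means were 11.5 ± 1.92 and 5.52 ± 0.664 CPM (SD, n = 3 each). The log2 fold change was -1.06 (SE 0.18), with an adjusted p of 0.065 in edgeR and 0.00101 in DESeq2. Without control replicate 2 the fold change was -1.14 (SE 0.20, adjusted p = 0.0527 in edgeR), so the direction did not rest on that library. When each of the 6 libraries was left out in turn, the fold change lay between -1.14 and -0.92 and edgeR called it in none of the 6 fits. With every gene of at least 1 count in any library kept, edgeR did call it (adjusted p = 0.00848). It was also called by edgeR with the replicate number as a block (adjusted p = 0.035). Its call thus turned on the tool, on the filter and on the block.

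The fibrillar collagens with the highest level per kb of exon were those of ordinary connective tissue, *Col1a1*, *Col1a2* and *Col3a1*. *Col1a1*, the alpha 1 chain of type I collagen (chr11:94797538-94814356, plus strand), stood at 21.2, 4.94 and 20.7 CPM in controls and 12.4, 23.8 and 18.0 CPM in mutants. Controls 1 and 3 lay within the mutants' range, and control replicate 2 lay far below all other libraries. Its log2 fold change was 0.22 (SE 0.60, adjusted p = 0.954 in edgeR) with that library and -0.21 (SE 0.23) without it. *Col1a2*, which encodes the alpha 2 chain of the same molecule (chr6:4454814-4491543, plus strand), stood at 36.9, 26.4 and 35.0 CPM in controls and 24.6, 45.1 and 36.3 CPM in mutants. The genotypes overlapped, and the fold change was 0.12 (SE 0.22, adjusted p = 0.922 in edgeR) with and -0.02 (SE 0.22) without control replicate 2. *Col3a1*, the type III collagen of vessel walls and other elastic tissues (chr1:45368383-45406551, plus strand), stood at 19.4, 4.30 and 15.6 CPM in controls and 6.02, 16.1 and 12.1 CPM in mutants. Here both control replicate 2 and mutant replicate 1 were low, and the fold change was -0.18 (SE 0.64, adjusted p = 0.97 in edgeR) with and -0.60 (SE 0.37) without control replicate 2.

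The chains of type I collagen did not keep 1 ratio over the libraries. Per kb of exon, *Col1a1* over *Col1a2* was 1.06, 0.346 and 1.09 in controls and 0.935, 0.977 and 0.915 in mutants. Control replicate 2 gave the low value, and the other 5 libraries lay between 0.915 and 1.09. The ratio of *Col3a1* to *Col1a2* was 0.762, 0.236 and 0.645 in controls and 0.353, 0.518 and 0.482 in mutants, again lowest in control replicate 2. Per kb, *Col1a2* thus stood higher relative to *Col1a1* and *Col3a1* there than in any other library.

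The remaining 7 fibrillar genes, *Col5a1*, *Col5a2*, *Col5a3*, *Col11a1*, *Col11a2*, *Col24a1* and *Col27a1*, all overlapped between genotypes. Types V and XI collagen start and limit the growth of type I and type II fibrils. Their log2 fold changes lay between -0.49 for *Col5a1* and 0.62 for *Col5a3*, with edgeR's adjusted p at 0.658 and 0.684. They lay, without control replicate 2, between -0.71 for *Col5a1*, then lower in every mutant, and 0.42 for *Col11a2*, then higher in every mutant, and that of *Col5a3* was 0.32. *Col11a1*, the most abundant of the 7 per kb, lay between 11.7 and 21.1 CPM. The 11 fibrillar genes had a median log2 fold change of 0.21 with and -0.02 without control replicate 2. Summed over the class, the level was 149, 82.4 and 132 CPM in controls and 124, 143 and 116 CPM in mutants, lowest in control replicate 2.

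The genes of this class share an exon structure that the choice by symbol did not use. In the GENCODE annotation of NCBIM37, 305 of the 649 coding exons of the 11 fibrillar genes, 47%, were exactly 54 bases long, against 0.654% of the coding exons of all genes. The share was 25.3% in FACITs and 4.04% in type IV collagens, and 0 of the 486 coding exons of laminins had that length. Such an exon holds whole repeats of a glycine codon followed by a pair of other codons. The first 54-base coding exon that begins in frame with a glycine codon is shown for *Col1a1*, *Col2a1* and *Col3a1*, because it lets the repeat be seen in the gene DESeq2 called and in fibrillar collagens with a high level. The bases are those of the coding strand in NCBIM37, 5′ to 3′, with glycine codons in capitals. The *Col1a1* exon is coding exon 8, at chr11:94801218-94801271 on the plus strand. For *Col2a1* it is coding exon 6, at chr15:97828976-97829029 on the minus strand, and for *Col3a1* coding exon 6, at chr1:45382205-45382258 on the plus strand.
Col1a1: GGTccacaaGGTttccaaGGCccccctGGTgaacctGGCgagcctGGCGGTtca
Col2a1: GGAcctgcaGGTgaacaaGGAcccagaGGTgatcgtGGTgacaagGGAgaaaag
Col3a1: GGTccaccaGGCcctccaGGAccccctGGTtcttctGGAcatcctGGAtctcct
The *Col2a1* and *Col3a1* exons hold 6 glycine codons each, 1 in every 3 codons, and the *Col1a1* exon holds 7, the last of which directly follows another.

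None of the 19 basement membrane genes was called by edgeR or by DESeq2. Type IV collagen, the network-forming collagen of all basement membranes, was led by *Col4a2*, *Col4a1* and *Col4a5*, with median levels of 8.66, 4.45 and 2.79 CPM per kb. *Col4a1* and *Col4a2* encode the chains of the form found in vessel walls throughout the body. *Col4a1* (minus strand, chr8:11198423-11312826) stood at 36.4, 24.2 and 31.7 CPM in controls and 38.8, 29.0 and 23.4 CPM in mutants, and *Col4a2* (plus strand, chr8:11312805-11449287) stood at 65.8, 53.3 and 60.3 CPM in controls and 64.0, 54.3 and 49.4 CPM in mutants. Both overlapped between genotypes, with log2 fold changes of -0.02 (SE 0.21) and -0.10 (SE 0.12), and of -0.17 (SE 0.19) and -0.18 (SE 0.12) without control replicate 2. These errors are small enough that a change of 1 on the log2 scale lies more than 4 SE from either value. *Col4a5*, an X-linked chain of kidney, skin and smooth muscle basement membranes (plus strand, chrX:137909928-138123778), stood at 20.7, 13.2 and 19.0 CPM in controls and 18.7, 18.8 and 16.6 CPM in mutants. Its fold change was 0.04 (SE 0.17, adjusted p = 0.976 in edgeR) with and -0.14 (SE 0.14) without control replicate 2.

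*Col4a3*, *Col4a4* and *Col4a6* were lower per kb. *Col4a3*, a chain of the kidney filter's basement membrane, stood at 8.30, 6.80 and 10.5 CPM in controls and 8.08, 4.14 and 4.92 CPM in mutants, and the genotypes overlapped through control replicate 2 and mutant replicate 1. Its log2 fold change was -0.58 (SE 0.27, adjusted p = 0.571 in edgeR), and lay between -0.91 and -0.40 when each library was left out in turn. Fold changes of *Col4a4* and *Col4a6* were -0.11 and 0.37 with and -0.30 and 0.18 without control replicate 2. Without control replicate 2, *Col4a3*, *Col4a4* and *Col4a5* were lower in every mutant than in both other controls. The median of the 6 type IV genes was -0.06 with and -0.17 without that library, and it was above 0 without control replicate 1, control replicate 3 or mutant replicate 3, at up to 0.05. Their summed level was 145, 105 and 133 CPM in controls and 145, 119 and 105 CPM in mutants.

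The 6 type IV genes form head-to-head pairs on 3 chromosomes. *Col4a1* and *Col4a2* on chromosome 8 overlapped by 22 bases at their annotated starts. The starts of *Col4a4* (minus strand) and *Col4a3* (plus strand) on chromosome 1 were separated by 71 bases, and those of *Col4a6* and *Col4a5* on chromosome X by 1308 bases. Levels within pairs were compared per kb of exon. The ratio of *Col4a1* to *Col4a2* was the steadiest, between 0.440 and 0.589 over the 6 libraries. That of *Col4a5* to *Col4a6* lay between 1.94 and 3.32. For *Col4a3* over *Col4a4* it was 1.82, 2.17 and 2.00 in controls and 1.82, 1.00 and 1.47 in mutants, so mutant replicates 2 and 3 gave the lowest values. The interval between the starts of *Col4a4* and *Col4a3* is shown because it is short and lies upstream of both annotated starts. It is chr1:82583425-82583495 of NCBIM37, printed on the plus strand, with *Col4a4* starting to its left and *Col4a3* to its right.
Col4a4 to Col4a3: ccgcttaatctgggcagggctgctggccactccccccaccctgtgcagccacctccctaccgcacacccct
A search for CCAAT and GGGCGG on both strands found neither in the interval, so no base is in capitals.

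Collagens XV and XVIII lie where basement membranes meet the surrounding matrix. *Col15a1* was at 10.3, 1.74 and 7.60 CPM in controls and 3.30, 7.78 and 4.06 CPM in mutants, and its log2 fold change was -0.35 (SE 0.66) with and -0.81 (SE 0.34) without control replicate 2, its lowest library. *Col18a1*, the source of endostatin, lay between 4.01 and 10.3 CPM with a fold change of 0.31 (SE 0.40) with and 0.07 (SE 0.41) without it. Neither gene separated the genotypes.

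Of the 11 laminin chains, *Lamc1*, *Lamb2* and *Lama2* had the highest levels per kb, with medians of 11.8, 7.18 and 2.99 CPM per kb. *Lamc1* encodes the gamma 1 chain that most laminins contain (chr1:155066052-155179916, minus strand). It stood at 94.9, 71.8 and 97.9 CPM in controls and 98.1, 99.0 and 97.2 CPM in mutants, so the mutants lay within 2 CPM of one another and control replicate 2 lay below all other libraries. The log2 fold change was 0.15 (SE 0.11, adjusted p = 0.758 in edgeR) with that library and 0.02 (SE 0.08) without it. *Lamb2*, the beta 2 chain of vascular and synaptic laminins (chr9:108382193-108392861, plus strand), stood at 42.6, 29.2 and 35.2 CPM in controls and 43.4, 44.1 and 38.1 CPM in mutants, with a fold change of 0.23 (SE 0.14) with and 0.10 (SE 0.12) without control replicate 2. *Lama2*, the alpha 2 chain of muscle and of the glial side of brain vessels (chr10:26701094-27336748, minus strand), stood at 33.6, 21.0 and 35.4 CPM in controls and 23.8, 28.0 and 30.3 CPM in mutants. The genotypes overlapped for both with all 6 libraries. The fold change of *Lama2* was -0.13 (SE 0.19) with and -0.33 (SE 0.13, adjusted p = 0.559 in edgeR) without control replicate 2, and without it every mutant lay below both other controls.

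*Lama3* and *Lamb3* encode chains of laminin that anchors epithelia. *Lama3* stood at 13.0, 9.94 and 12.9 CPM in controls and 14.6, 16.8 and 17.3 CPM in mutants, without overlap. Its fold change was 0.45 (SE 0.15, adjusted p = 0.395 in edgeR and 0.409 in DESeq2), and 0.33 (SE 0.15) without control replicate 2. *Lamb3* overlapped between genotypes, at 3.95 to 7.03 CPM with a fold change of 0.09 with and -0.08 without it.

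The laminin genes *Lama1*, *Lama4*, *Lama5*, *Lamb1* and *Lamc3* overlapped between genotypes, with log2 fold changes from -0.36 for *Lamb1* to 0.31 for *Lama1*. These limits without control replicate 2 were -0.57 and 0.63, and those of *Lama4*, *Lama5* and *Lamc3* were 0.05, -0.02 and -0.49. *Lama4* and *Lama5* encode the alpha chains of endothelial basement membranes, and *Lamb1* the beta chain paired with either. *Lamb1* stood at 28.8, 15.5 and 23.9 CPM in controls and 14.5, 20.6 and 17.9 CPM in mutants, and without control replicate 2 its fold change was -0.57 (SE 0.16, adjusted p = 0.293 in edgeR). Unlike most members, *Lama1* stood higher in control replicate 2 than in both other controls, at 14.9, 25.1 and 14.2 CPM in controls and 17.1, 23.5 and 26.7 CPM in mutants. Without that library its fold change was 0.63 (SE 0.19, adjusted p = 0.324 in edgeR), with every mutant above both other controls. Per kb, the ratio of *Lamb1* to *Lamb2* was 0.383, 0.301 and 0.386 in controls and 0.190, 0.265 and 0.266 in mutants, so all 3 mutants lay below all 3 controls. It was the only one of 7 ratios between chains in which genotypes did not overlap, and it was singled out after its values were seen. For single genes, levels did not overlap in 15.8% of all genes tested. The median fold change of the 11 laminin genes was 0.23 with and 0.02 without control replicate 2. Their summed level was 270.3, 190.5 and 250.1 CPM in controls and 249.6, 269.9 and 259.9 CPM in mutants.

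The most abundant member was a membrane-bound collagen. *Col25a1* encodes a transmembrane collagen of neurons whose shed part is found in amyloid plaques, and it lies on the plus strand at chr3:129883809-130302795. Its median of 41.2 CPM per kb was the highest of the 54 genes, ahead of *Lamc1* at 11.8 CPM per kb. It stood at 397, 182 and 224 CPM in controls and 476, 377 and 389 CPM in mutants. Control replicates 2 and 3 lay below every mutant, and control replicate 1 lay within the mutants' range. The log2 fold change was 0.63 (SE 0.31), with an adjusted p of 0.643 in edgeR and 0.786 in DESeq2, so neither called it. Without control replicate 1 the fold change was 1.03 and edgeR called it (adjusted p = 0.0284). Without control replicate 2 it was 0.41 (SE 0.27, adjusted p = 0.816). Whether edgeR called *Col25a1* thus turned on which control was kept, whereas its fold change was positive in every fit.

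The other membrane-bound collagens had low levels. *Col13a1*, a collagen of the neuromuscular junction and other cell adhesions, stood at 2.54, 0.0581 and 1.65 CPM in controls and 1.98, 1.07 and 2.06 CPM in mutants. Control replicate 2 held 1 count of it, which is under the floor of 3 counts, and the log2 fold change was 0.28 (SE 0.83) with and -0.31 (SE 0.41) without that library. *Col17a1*, a collagen of the junctions that fasten epithelial cells to the basement membrane, stood at 0.870, 1.05 and 0.645 CPM in controls and 1.32, 1.26 and 0.932 CPM in mutants, with a fold change of 0.43 (SE 0.39). Leaving out control replicate 2 put every mutant above both other controls for *Col17a1*, with a fold change of 0.61 (SE 0.49, adjusted p = 0.84 in edgeR). Neither gene was called in either fit.

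**Figure D3:**
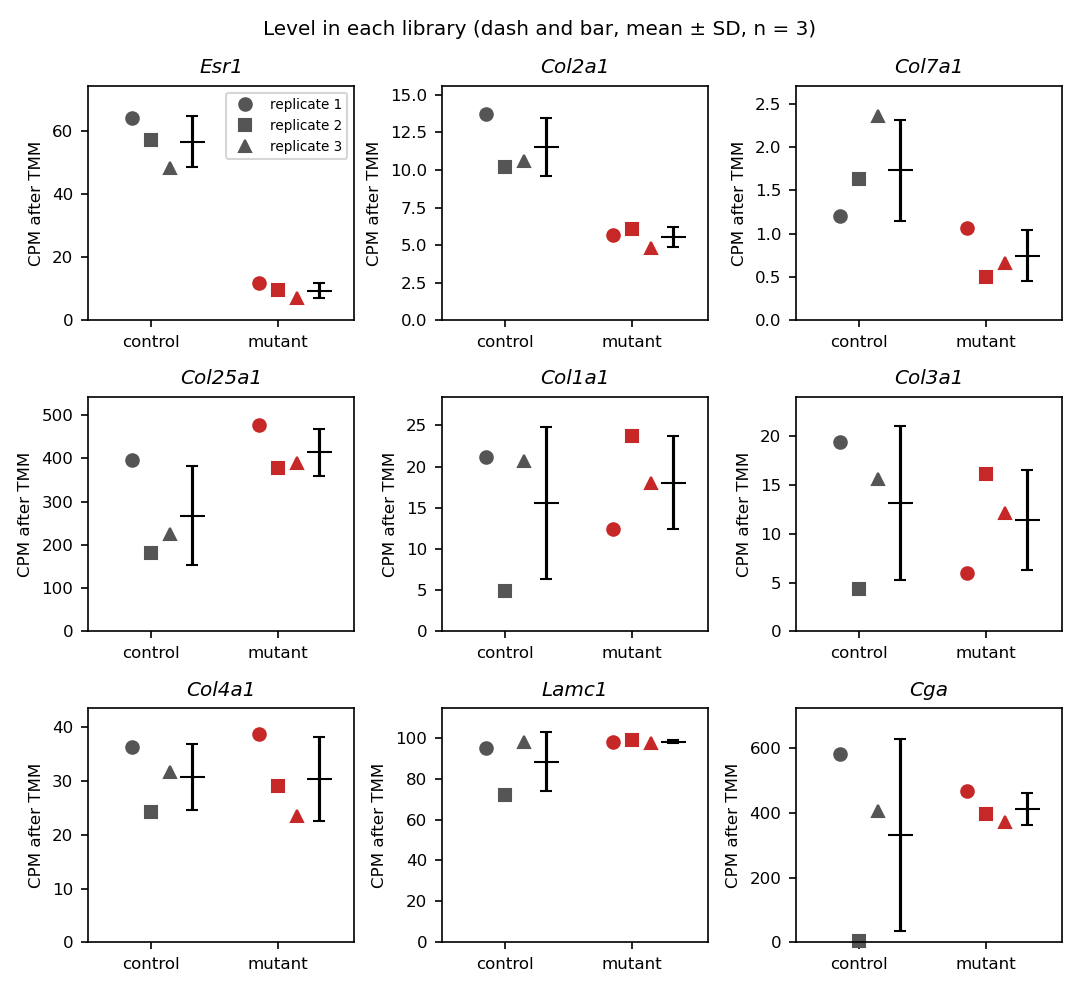
CPM after TMM (vertical axes, from 0) of 9 genes in each of the 6 libraries, with a symbol for each replicate number and a dash and bar for the mean ± SD of 3 libraries. *Esr1*, *Col2a1* and *Col7a1* separate the genotypes, whereas control replicate 2 (square) lies lowest for *Col1a1*, *Col3a1*, *Col25a1*, *Lamc1* and the pars tuberalis gene *Cga*.

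Of the 21 genes in the other classes, *Col7a1* had the lowest fold change. It encodes the collagen of the fibrils that anchor skin to its underlying tissue and lies on the plus strand at chr9:108855631-108886920. It stood at 1.2, 1.63 and 2.36 CPM in controls and 1.07, 0.502 and 0.665 CPM in mutants, all below the controls, from between 8 and 33 counts a library. The log2 fold change was -1.23 (SE 0.43), with an adjusted p of 0.417 in edgeR and 0.513 in DESeq2. Without control replicate 2 it was -1.27 (SE 0.51). The gene's direction was the same in both fits, and neither called it. A microRNA gene, *Mir711*, overlaps the exons of *Col7a1* on the same strand, and reads cannot be divided between them.

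The highest levels per kb in these classes were those of *Col9a3*, *Col8a1* and *Col6a1*, at medians of 4.67, 4.45 and 2.46 CPM per kb. *Col9a3*, a chain of the FACIT type IX collagen (chr2:180332495-180356894, plus strand), stood at 17.3, 14.4 and 18.7 CPM in controls and 19.5, 16.4 and 19.3 CPM in mutants. Its log2 fold change was 0.14 (SE 0.14) with and 0.03 (SE 0.14) without control replicate 2, and 6.07% of its exon bases overlap *Tcfl5* on the opposite strand, so its reads may include some from that gene. *Col8a1*, a short-chain collagen of vessel walls (chr16:57624371-57754850, minus strand), stood at 21.6, 14.9 and 23.9 CPM in controls and 19.5, 28.0 and 25.7 CPM in mutants, a fold change of 0.28 (SE 0.19) with and 0.11 (SE 0.16) without that library. *Col6a1*, which encodes a chain of the beaded type VI microfibrils (chr10:76171537-76188913, minus strand), stood at 12, 5.93 and 9.67 CPM in controls and 13.0, 14.1 and 9.25 CPM in mutants. Its fold change was 0.40 (SE 0.26) with and 0.16 (SE 0.21) without control replicate 2. All 3 genes overlapped between genotypes and were lowest in control replicate 2.

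Among the remaining FACITs, *Col12a1*, which coats type I fibrils, stood at 19.0, 14.5 and 18.9 CPM in controls and 20.0, 23.9 and 20.6 CPM in mutants, without overlap, with a log2 fold change of 0.30 (SE 0.14, adjusted p = 0.577 in edgeR) with and 0.18 (SE 0.14) without control replicate 2. The fold changes of *Col9a1*, *Col9a2*, *Col14a1*, *Col16a1*, *Col19a1*, *Col20a1* and *Col22a1* lay between -0.26 and 0.57, all with overlapping genotypes, and between -0.35 and 0.70 without control replicate 2. In type VI, *Col6a2*, *Col6a3*, *Col6a5* and *Col6a6* had fold changes between -0.18 and 0.23 with and between -0.19 and 0.66 without that library. *Col6a5* stood out among them for its spread, at 1.00, 5.52 and 4.59 CPM in controls and 2.64, 3.51 and 6.85 CPM in mutants, and was lowest in control replicate 1 rather than 2. The ratio of *Col6a1* to *Col6a2* per kb lay between 2.06 and 5.35, with the highest value in mutant replicate 1.

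*Col8a2* and *Col10a1*, short-chain collagens, had log2 fold changes of 0.72 (SE 0.41) and -0.70 (SE 0.58), both with overlap, and 0.46 and -0.78 without control replicate 2. *Col10a1*, the collagen of cartilage that turns to bone, lay between 0.247 and 1.43 CPM, at the edge of what counted as measured. *Col26a1* stood between 2.28 and 3.39 CPM, higher in every mutant than in every control, with a fold change of 0.30 (SE 0.24). *Col28a1*, a collagen of peripheral nerve, stood at 2.41, 0.988 and 3.87 CPM in controls and 5.69, 2.82 and 4.66 CPM in mutants, with overlap. Its fold change of 0.87 (SE 0.46) was the highest of all members and was 0.48 (SE 0.35) without control replicate 2. The median of the 20 tested genes in these classes was 0.16 with and 0.07 without that library.

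Collagen chains are hydroxylated, folded, trimmed and crosslinked by other proteins, and 32 such processing genes were listed. Of the 31 tested, edgeR called 0 and DESeq2 called 1, lower in mutants, where they called 0.118% and 1.31% of all genes. The median log2 fold change was -0.04 with and -0.08 without control replicate 2. With the replicate number as a block, edgeR called *Leprel1* and *P4ha2*, both lower in mutants (adjusted p = 0.0334 and 0.0455). Leaving out control replicate 1, edgeR called 1, the procollagen-trimming protease gene *Tll1* (log2 fold change 1.37, SE 0.19, adjusted p = 0.0296), which had 0.79 (adjusted p = 0.654) with all 6 libraries. The fold change of *Tll1* was 0.49 (adjusted p = 0.814 in edgeR) without control replicate 2. The gene DESeq2 called was *P4ha2*, a catalytic subunit of prolyl 4-hydroxylase, named after its value was seen. It stood at 29.8, 31.8 and 19.3 CPM in controls and 18.5, 15.4 and 14.1 CPM in mutants, all below the controls, with a fold change of -0.76 (SE 0.19, adjusted p = 0.239 in edgeR and 0.024 in DESeq2). The highest levels per kb were those of *P4hb*, the other subunit of that enzyme, at 142, 122 and 124 CPM in controls and 138, 119 and 129.6 CPM in mutants, and of *P4ha3*, *Leprel1* and *P4ha1*, all of them hydroxylase genes. *Mia3*, which helps procollagen leave the endoplasmic reticulum and has no exon length here, stood between 222 and 266 CPM. Fold changes of *P4hb*, *P4ha3*, *Leprel1* and *P4ha1* were 0.00, -0.18, -0.65 and -0.08, with overlap for all 4 with all 6 libraries, and -0.04, -0.13, -0.63 and -0.05 without control replicate 2. Summed over the list, processing genes stood at 1035, 961 and 908 CPM in controls and 954, 889 and 876 CPM in mutants, so control replicate 2 was not the lowest for them.

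Proteins that sit beside collagens and laminins in the matrix were listed as 16 basement membrane partners and 16 fibril partners. Of the 16 basement membrane partners, all tested, 0 were called by edgeR or DESeq2, and their median log2 fold change was 0.12 with and 0.05 without control replicate 2. *Sparc*, a collagen-binding glycoprotein, had the highest level per kb and stood at 1636, 2523 and 1826 CPM in controls and 1716, 1943 and 2517 CPM in mutants. It was thus not low in control replicate 2. *Agrn*, *Fn1* and *Smoc1* followed per kb, with fold changes of 0.02, 0.01 and -0.23 with and 0.03, 0.39 and -0.20 without control replicate 2, where *Fn1* was highest, at 82.9 CPM. The core basement membrane partners *Nid1* and *Hspg2*, nidogen and perlecan, stood at 21.9 and 10.1 CPM in control replicate 2, their lowest library, and were named after their values were seen.

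Of the 15 fibril partners tested, edgeR called 0 and DESeq2 called 1, higher in mutants, where DESeq2 called 1.31% of all genes. The median log2 fold change was 0.13 with and -0.10 without control replicate 2. The gene DESeq2 called was *Thbs2*, a thrombospondin that shapes collagen fibrils, named after its value was seen. It stood at 10.7, 8.48 and 8.53 CPM in controls and 13.8, 18.1 and 16.8 CPM in mutants, all above the controls, with a fold change of 0.82 (SE 0.16, adjusted p = 0.0884 in edgeR and 0.00531 in DESeq2). *Sparcl1*, *Dcn*, *Bgn* and *Lum* had the highest levels per kb. Of these, the proteoglycans *Dcn*, *Bgn* and *Lum*, which bind collagen fibrils, were each lowest in control replicate 2, at 33.4, 21.2 and 5.06 CPM, whereas *Sparcl1*, an astrocyte relative of *Sparc*, stood there at 2021 CPM, above both other controls. Another such proteoglycan, *Fmod*, and the fibulin gene *Fbln1* also stood above both other controls there, at 14.5 and 5.06 CPM, so collagen-binding proteoglycans were not all low in that library.

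Of 17 receptor genes, all tested, edgeR called 0 and DESeq2 called 1, higher in mutants, where DESeq2 called 1.31% of all genes. The median log2 fold change was 0.16 with and 0.15 without control replicate 2. The gene DESeq2 called was *Itgb4*, the integrin subunit that binds laminin at epithelial junctions, named after its value was seen. It stood at 5.09, 5.69 and 5.09 CPM in controls and 10.7, 11.3 and 8.65 CPM in mutants, all above the controls, and its fold change was 0.95 (SE 0.17, adjusted p = 0.0706 in edgeR and 0.00515 in DESeq2). EdgeR with the replicate number as a block called *Itgb4* (adjusted p = 0.0449). *Dag1*, *Gpr56*, *Itgb1* and *Cd44* had the highest levels per kb. *Dag1*, which encodes the laminin receptor dystroglycan, stood between 192 and 237 CPM with a fold change of -0.06 (SE 0.09), and those of *Gpr56*, *Itgb1* and *Cd44* were -0.02, 0.05 and 0.37. Leaving out control replicate 2 gave -0.02, 0.06, 0.02 and 0.23 for these 4 genes. *Itgb1* is the beta subunit of the main collagen-binding integrins, and its level lay between 111 and 136 CPM.

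Of 18 matrix proteases and their inhibitors, 14 were tested and 0 were called by edgeR or DESeq2, with a median log2 fold change of 0.11 with and 0.11 without control replicate 2. The inhibitors led the list per kb. *Timp2* stood between 766 and 843 CPM and *Timp3*, an inhibitor bound to the matrix, stood at 877, 563 and 770.0 CPM in controls and 834, 819.8 and 851 CPM in mutants, lowest in control replicate 2. *Mmp17* and *Timp4* followed, with fold changes of -0.02 and 0.07 with and 0.18 and 0.26 without control replicate 2. The collagenase genes *Mmp8* and *Mmp13* and the stromelysin gene *Mmp3* were at 0 in at least 1 library, where a count of 0 allows up to the floor of 3 counts, and were not tested, nor was *Ctsk*, at 0.116 to 0.628 CPM.

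Summed markers of vessels and connective tissue, which make collagens and laminins, were lowest in control replicate 2, but single markers differed in direction. The 10 endothelial markers summed to 206, 115 and 188 CPM in controls and 208, 179 and 201 CPM in mutants, lowest in control replicate 2, with *Ly6c1* the most abundant per kb. The 10 mural cell markers, led per kb by *Rgs5*, summed to 213, 160.3 and 168 CPM in controls and 172, 197 and 198 CPM in mutants. The 12 fibroblast and leptomeningeal markers, led by *Dcn*, summed to 366, 202 and 381 CPM in controls and 220.4, 575 and 268 CPM in mutants. *Dcn*, *Lum* and *Ogn* stand in that list and among the fibril partners. The 7 pars tuberalis and pituitary markers, led by *Cga*, summed to 1150.3, 62.9 and 901 CPM in controls and 983, 922 and 769 CPM in mutants. Each of these 4 lists was lowest in control replicate 2 and none had a gene called by edgeR or DESeq2. Single markers above both other controls in that library were *Ly6c1*, at 5.42, 6.51 and 4.73 CPM in controls, the mural genes *Vtn* and *Notch3*, at 21.0 and 23.2 CPM there, and *Slc6a13*, *Slc22a6*, *Slc13a4*, *Igf2* and *Osr1* of the fibroblast and leptomeningeal list, at 8.19, 4.47, 13.8, 91.7 and 2.56 CPM there. The low sums thus came from a part of each list, such as *Kdr*, *Emcn*, *Rgs5* and *Dcn*. No gene of the first 3 lists was at 0 in any library, and *Gh* and *Prl* of the pituitary list were at 0 in some. The part of these cells in the levels of collagens and laminins was not tested.

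With all 6 libraries, TMM, the default filter and no replicate block, only the oligodendrocyte list held a gene called by edgeR. All 8 of its genes were higher in every mutant than in every control, against 7.88% of all genes tested. EdgeR called 1 and DESeq2 called 4, all higher, where they called 0.118% and 1.31% of all genes in either direction. The median log2 fold change was 0.98 with and 1.24 without control replicate 2. The gene edgeR called was *Cldn11*, a tight junction protein of myelin, at 7.90, 11 and 7.38 CPM in controls and 18.8, 22.2 and 22.6 CPM in mutants (log2 fold change 1.27, SE 0.17, adjusted p = 0.0313). Its call held in 2 of the 6 fits with a library left out, those without control replicate 2 (adjusted p = 0.00237) and without mutant replicate 1 (adjusted p = 0.0361), and the highest adjusted p was 0.151. Leaving out control replicate 2 raised the number of genes of this list called by edgeR to 6, where it called 0.296% of all genes. The list summed to 751, 1171 and 629 CPM in controls and 1675, 1587 and 1517 CPM in mutants, and none of its genes was at 0. The part of oligodendrocytes in the *Col2a1*, *Thbs2* and *Itgb4* differences was not tested.

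The other marker lists held no gene called by edgeR with all 6 libraries, TMM, the default filter and no replicate block. With the replicate number as a block, edgeR called the tanycyte gene *Dio2* (adjusted p = 0.0108). Tanycyte markers (8 genes, led by *Gpr50*) summed to 1194, 809 and 1061 CPM in controls and 1258, 1104 and 1186 CPM in mutants, lowest in control replicate 2, with *Dio2* higher and *Vcan* lower in mutants by DESeq2. Leaving out control replicate 2, edgeR called *Vcan* too, with a log2 fold change of -0.79 (SE 0.08, adjusted p = 0.0017), against -0.62 (adjusted p = 0.233) with it. Choroid plexus markers (6 genes, led by *Ttr*) summed to 285, 89.0 and 339 CPM in controls and 160.1, 479 and 116 CPM in mutants, lowest in control replicate 2. Astrocyte markers (5 genes, led by *Slc1a3*) summed to 1130.1, 1515 and 1220.2 CPM in controls and 1261, 1239.8 and 1570.2 CPM in mutants. The 5 microglial markers, led by *P2ry12*, summed to 132, 147 and 132 CPM in controls and 169.9, 176 and 180.3 CPM in mutants, with *Cx3cr1* higher in mutants by DESeq2. The 4 neuronal markers, led by *Snap25*, summed to 3180.5, 4068 and 4034 CPM in controls and 3466, 4857 and 4383 CPM in mutants. Neuronal and astrocyte sums were thus not lowest in control replicate 2. The median log2 fold changes of oligodendrocyte precursor, ependymal, arcuate and VMH markers were 0.03, 0.44, 0.34 and 0.90 with and 0.08, 0.42, 0.39 and 1.43 without control replicate 2, so that of VMH markers moved most with that library. Among these 4 lists DESeq2 called only the arcuate gene *Tac2*, higher in mutants. Over all genes DESeq2 called 1.31%.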

How the data were processed

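Single-end reads were mapped by the authors with TopHat2 2.1.0 and counted on the exons of genes with HTSeq 0.6, and the authors deposited the counts, 1 whole number per gene symbol and library, without normalization. The strand setting of the counting is not given in the sources used here, so reads from genes that overlap on opposite strands cannot be told apart. The labels name mm9 as the genome build, whereas the study's methods give a joined name, NCBI37/mm10, and no coordinates come with the counts. Positions and exon lengths given here are those of GENCODE on NCBIM37, the build that mm9 names, matched by symbol. Lengths are those of all annotated exons of a gene joined, which may differ from the annotation the authors counted on. Promoter windows are from RefSeq on GRCm38.p6, with no coordinates used.

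Libraries were grouped by the genotype in their labels, each from a female mouse, and mutants were compared with controls in R 4.3.3. The test was the quasi-likelihood test of edgeR 4.0.16, with TMM, robust dispersions and the default filter on low counts, and p-values were adjusted over 15236 genes by the Benjamini-Hochberg method at 0.05. SE is the absolute log2 fold change over the square root of the F statistic. Of 3 libraries against 3, an exact permutation test could not go below p = 0.1, so none is given. Alternatives were RLE normalization, DESeq2 1.42.0, voom of limma 3.58.1, other filters on low counts, the replicate number as a block and each library left out in turn. The tests were tried on simulated counts before use. Between replicates of a genotype, chi-square per degree of freedom was 6.60 to 20.6, a measure of spread between separate animals over counting noise alone, from which nothing further is read.

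The members and lists were chosen with earlier results of these data known. Members were named with a value in every library if edgeR or DESeq2 called them, if genotypes did not overlap and the log2 fold change was 0.5 or more in size, or if they were among the 3 highest per kb in their class, with laminins and basement membrane collagens apart. Of other lists, genes called by edgeR and up to 4 with the highest level were named. Other genes were named after their values were seen. Some genes that the rule would name are counted in totals but not reported here.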

Additional observations from a re-analysis of the deposited data

How the results depend on the processing

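EdgeR called 18 genes in all, and the count was 200 with DESeq2, 106 with every gene of at least 1 count in any library and 123 with a block for the replicate number. Leaving out each library in turn gave between 7 and 46 genes, with 46 reached without control replicate 2 and 9 without mutant replicate 2. The number of collagen and laminin genes called was 0 with edgeR, RLE normalization, voom and the filter of 10 counts or more in each library. It was 1, *Col2a1*, with DESeq2, with every gene of at least 1 count in any library (adjusted p = 0.00848, edgeR) and with the block (adjusted p = 0.035, edgeR). It lay between 0 and 1 when each library was left out, and the 1 was *Col25a1*, without control replicate 1. The adjusted p of *Col2a1* over all alternatives lay between 0.00101 and 0.257, and its log2 fold change was below 0 in every one. *Esr1* stayed called and lower in every alternative.

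The replicate number marks no stated pairing. Deviations of same-numbered libraries from their genotype means had r = 0.313, 0.0487 and 0.0190 over genes, and not every library matched best with its own number. Values reported are therefore without the block unless it is named. No member other than *Col2a1* was called with the block. Of the other lists, genes that edgeR called with it included *Dio2*, *Leprel1*, *P4ha2* and *Itgb4*.

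Fold changes of several members turned sign. That of *Col4a1* was 0.0034 to 0.14 in the 4 fits without control replicate 1 or 3 or mutant replicate 2 or 3. *Col1a1* and *Col1a2* were at -0.21 and -0.02 without control replicate 2 and at -0.03 and -0.10 without mutant replicate 2. *Col3a1* was at 0.062 with voom, 0.22 without control replicate 1 and 0.12 without mutant replicate 1. *Lama2* was at 0.0072 without control replicate 3, and *Col4a5* and *Col13a1* were at -0.14 and -0.31 without control replicate 2. Over the left-out libraries, fold changes lay between -0.23 and 0.14 for *Col4a1*, -0.21 and 0.52 for *Col1a1*, -0.10 and 0.31 for *Col1a2*, -0.60 and 0.22 for *Col3a1*, -0.33 and 0.01 for *Lama2*, -0.14 and 0.17 for *Col4a5* and -0.31 and 1.04 for *Col13a1*. Those of *Col15a1* and *Col6a5* also crossed 0, between -0.82 and 0.14 and between -0.26 and 0.66, as did others not listed. The cause was not tested.

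The median log2 fold change of the 3 membrane-bound genes was 0.43 and lay between 0.35 and 1.03 when each library was left out, highest without control replicate 1. The median of all members lay between 0.02 and 0.23, that of fibrillar genes between -0.02 and 0.30, of type IV genes between -0.20 and 0.05, of laminin genes between 0.02 and 0.37, of basement membrane genes between -0.08 and 0.21 and of the other class between 0.07 and 0.21, so those of fibrillar, type IV and basement membrane genes crossed 0. The number whose genotypes did not overlap was 6 with TMM, with RLE factors and with CPM of the total count, and 16 of the 54 measured genes without control replicate 2, an alternative chosen after seeing the data. Of the 54 measured genes, 52 reached 1 CPM in 3 libraries and 51 reached 0.5 CPM in all 6. Summed levels of fibrillar collagens, type IV collagens and laminins moved by less than the spread of replicates with either other scaling.

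With 3 libraries a genotype, a missed threshold does not show that levels were equal, and genes near the floor of 3 counts carry wide errors. Values of DESeq2 and edgeR differ in what they call, and which is nearer the truth was not tested. Libraries differed in levels of pars tuberalis, vessel and VMH genes, whether dissections differed was not tested, and reads of overlapping genes were not separated.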

Other observations

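Promoter windows of 250 bases before and 50 after the start of a gene were found for 39 of the 54 members in RefSeq on GRCm38.p6, and *Col2a1* and *Col1a1* were not among them. Letters were searched on both strands. A full estrogen response element, GGTCA followed after 3 bases by TGACC, was in the windows of 0 of the 39 and in 20 of 27025 over all genes, 0.074%. GGTCA, contained in that element, was in 33.3% of members and 43.6% of all genes. CCAAT was in 35.9% of members and 41.1% of all genes, and GGGCGG in 61.5% of members and 38.2% of all genes. Here all genes are the 27025 with a window, which were not matched to the members as coding or tested genes. These are matches of letters in short windows and say nothing about which factors bind.

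Several members lie side by side in NCBIM37. *Col3a1* (chr1:45368383-45406551) and *Col5a2* (chr1:45431166-45560127) are neighbours on chromosome 1 and point toward each other. *Col6a6*, *Col6a5* and *Col6a4* follow one another on chromosome 9, from 105591747 to 105999114. Levels within that set differed, with medians per kb of 0.436, 0.166 and 0.0709 CPM for *Col6a5*, *Col6a6* and *Col6a4*. *Col6a5* had the widest range of the 3, 1.00 to 6.85 CPM, with its lowest value in control replicate 1 and its highest in mutant replicate 3. No cause of that range was tested.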
